A study of Rattus norvegicus with 6 samples.

Results

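Toll-like receptors and the proteins that work with them were followed in the rat endosalpinx, which is the mucosa that lines the oviduct. The genes were Tlr2, Tlr3, Tlr4, Tlr5, Tlr6, Tlr7, Tlr9, Myd88, Cd14 and Lbp, chosen by name, and for each the probe set that carries that symbol alone was taken. Of these 10 genes 9 were measured, each by 1 probe set, among 14506 genes in all. Tlr5, the receptor for bacterial flagellin, is not analysed here. The animals were adult Sprague-Dawley rats with a weight of 240 to 280 g. The 3 mated females were put with a fertile male at 2200 h of pro-estrus, had sperm or a vaginal plug 30 min later, stayed with the male, and were killed 3 h after mating with abundant semen in the uterus. The 3 unmated females were kept alone, were killed at 0130 h of estrus and showed uterine edema. Company of a male, handling and semen came with mating and cannot be told apart from it. Each rat gave 1 array, and values are log2 signals normalized by the authors with RMA.

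Toll-like receptors are membrane proteins of the innate immune system that recognise molecules of microbes and of damaged cells. TLR2, TLR4, TLR5 and TLR6 act mainly at the cell surface, where TLR2 pairs with TLR6 on lipopeptides, while TLR3, TLR7 and TLR9 bind nucleic acids in endosomes. LBP takes up bacterial lipopolysaccharide and hands it to CD14, which passes it to TLR4 and its partner MD-2. Most of these receptors signal through the adaptor MYD88 to NF-kB, and TLR3 signals through TRIF toward interferon genes. In the oviduct such receptors stand on the epithelium and on resident leukocytes, on a surface that meets sperm. Whether bacteria or seminal fluid reached it in these rats was not measured here.

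The 250 bases before the transcription start are shown for Tlr4, Tlr3 and Tlr6, whose signals had a similar order across rats, and for Cd14, whose signal varied most between mated rats. They are RefSeq sequences of the build GRCr8, read 5′ to 3′ on the strand of the gene, with Tlr4 at chr5:85160997-85161246 (plus strand), Tlr3 at chr16:53554666-53554915 (plus), Tlr6 at chr14:43715559-43715808 (plus) and Cd14 at chr18:28611159-28611408 (minus). Capitals mark GAGGAA or its reverse complement TTCCTC, the core bound by the myeloid and lymphoid factor PU.1.
Tlr4: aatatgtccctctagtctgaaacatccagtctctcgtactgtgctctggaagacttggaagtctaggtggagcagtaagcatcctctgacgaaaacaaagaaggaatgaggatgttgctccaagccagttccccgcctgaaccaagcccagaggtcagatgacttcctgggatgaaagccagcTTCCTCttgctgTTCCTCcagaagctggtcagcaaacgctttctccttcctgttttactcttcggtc
Tlr3: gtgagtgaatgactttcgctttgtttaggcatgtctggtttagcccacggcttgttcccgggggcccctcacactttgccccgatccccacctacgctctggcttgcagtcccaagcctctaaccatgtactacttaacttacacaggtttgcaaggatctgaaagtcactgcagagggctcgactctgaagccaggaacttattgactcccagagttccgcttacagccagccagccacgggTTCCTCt
Tlr6: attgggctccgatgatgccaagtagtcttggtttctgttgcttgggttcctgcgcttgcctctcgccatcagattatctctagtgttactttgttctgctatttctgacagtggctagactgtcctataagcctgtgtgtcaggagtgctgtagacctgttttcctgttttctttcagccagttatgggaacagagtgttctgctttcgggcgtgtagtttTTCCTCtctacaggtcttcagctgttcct
Cd14: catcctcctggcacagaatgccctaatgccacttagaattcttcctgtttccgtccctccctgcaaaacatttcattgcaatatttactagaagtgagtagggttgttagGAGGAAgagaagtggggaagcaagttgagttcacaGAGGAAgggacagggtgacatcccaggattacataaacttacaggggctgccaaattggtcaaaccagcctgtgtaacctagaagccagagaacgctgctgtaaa

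Promoter windows of 300 bases, of which 250 lie before the start and 50 after it, were found for 8 of the 9 measured genes; that of Lbp is not used here. GAGGAA was present on either strand in 6 of the 8, those of Tlr3, Tlr4, Tlr6, Tlr7, Tlr9 and Cd14, and in 27.6% of 33469 rat promoters of the same length. The 2 copies in Tlr4 began 67 and 55 bases before the start, the copy in Tlr6 began 29 bases and that in Tlr3 began 7 bases before it. The NF-kB consensus was found in 1 of the 8, that of Tlr2, with 3 matches of which 2 overlap, against 7.51% of all promoters. The AP-1 motif TGANTCA occurred in Tlr9 and Myd88 (7.33% of all promoters), and the interferon-stimulated response element in Myd88 (3.92%). The SP1 motif GGGCGG lay in Tlr2 and Myd88 (33.1%), and TATAAA in 0 of the 8 (14.2%). The share of G and C ran from 43.3% for Tlr7 to 61% for Tlr2, around a median of 51.7% for all promoters. A match describes the letters of a window and does not show binding.

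The members differed in how far they stood from background. Odorant and pheromone receptor genes, which serve sensory neurons, gave the guide: the 95th percentile of their mean signals was 7.13, and 71.1% of all genes lay above it. Of the 9 members 7 lay above it. Tlr2 and Tlr7 had mean signals of 6.57 and 6.56 and were within the range of the guide, so for these 2 genes neither presence nor a change could be read with confidence. Tlr6 exceeded the limit by 0.13 and Tlr9 by 0.51 log2 units. Myd88, Tlr3 and Tlr4 stood above it by 2.31, 2.48 and 3.35 units, and Cd14 and Lbp by 5.05 and 6.25 units. With the limit at the 99th percentile of the guide, 7.79, Tlr6 and Tlr9 also fell within it. Probe sets differ in how brightly they bind, so these distances do not rank the amounts of messenger RNA.

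**Figure D1:**
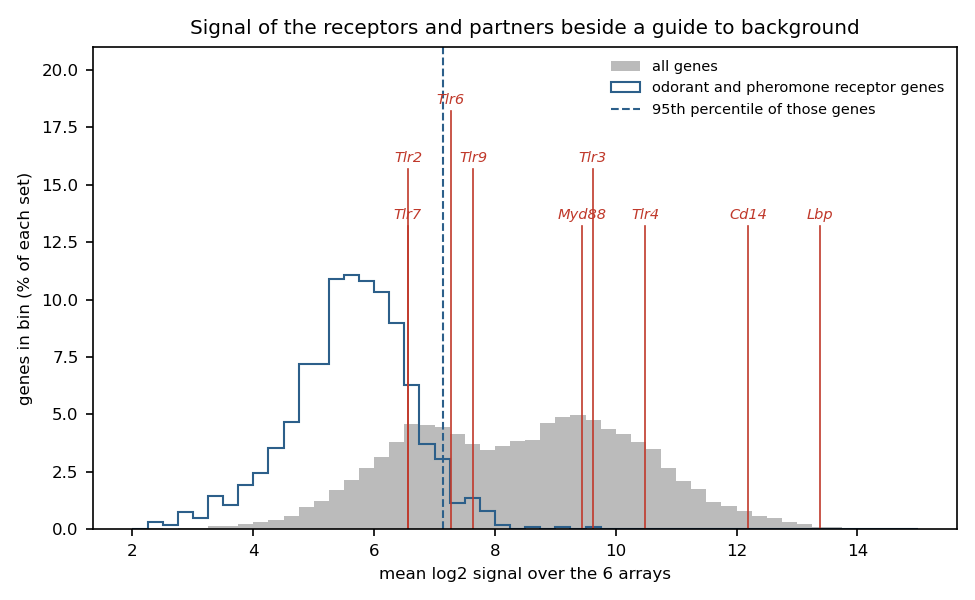
Distribution of the mean log2 signal over 6 arrays (x axis) for all 14506 genes (grey) and for odorant and pheromone receptor genes (blue line), in percent of each set (y axis), with the 95th percentile of the latter dashed at 7.13. Red lines mark the 9 measured genes: Tlr2 and Tlr7 lie left of the dashed line and the other 7 lie right of it.

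The labelled tissue was checked against markers of epithelium, and the 7 measured all lay above the guide, while Ovgp1, the oviductal glycoprotein, is not analysed here; Krt8, a keratin of simple epithelia, had a mean of 12.92 ± 0.09 without mating and of 13.02 ± 0.10 after it (SD, n = 3 each). Above the guide were also 9 of 11 monocyte and macrophage markers, led by the lysozyme gene Lyz2, and 3 of 9 lymphocyte and 4 of 6 endothelial markers. So were 6 of 7 fibroblast and 5 of 6 smooth muscle markers, while 71.1% of all genes lay above the guide. Of 10 neutrophil markers 0 lay above it, and of 8 sperm markers 2 did, Prm1 and Prm2, in both groups. Since Prm1 and Prm2 passed the guide in unmated rats too, a marker above it does not by itself show that a cell type was present. A lower signal from fewer cells cannot be told apart from less RNA in each cell.

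At 3 h after mating no difference from unmated rats was called for any of the 9 members. With 3 rats per group this does not show that there was none. By limma over all genes 0 of the 9 had an adjusted p under 0.05 (background 0% of 14506 genes), and 0 had an unadjusted p under 0.05, against 4.57% of all genes (3.02% higher and 1.55% lower in mated rats). The 2 groups overlapped for each of the 9, while 8.47% of all genes had groups that did not overlap (5.24% higher and 3.23% lower). The log2 fold changes, mated minus unmated, ran from -0.16 for Cd14 to 0.21 for Tlr4, with a median of 0.02 beside 0.01 for all genes. Of the 9 genes 6 had a higher mean in mated rats, where 53.3% of all genes did. Without mated replicate 2 only 3 of the 9 did, so this count gives no direction to the group.

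**Figure D2:**
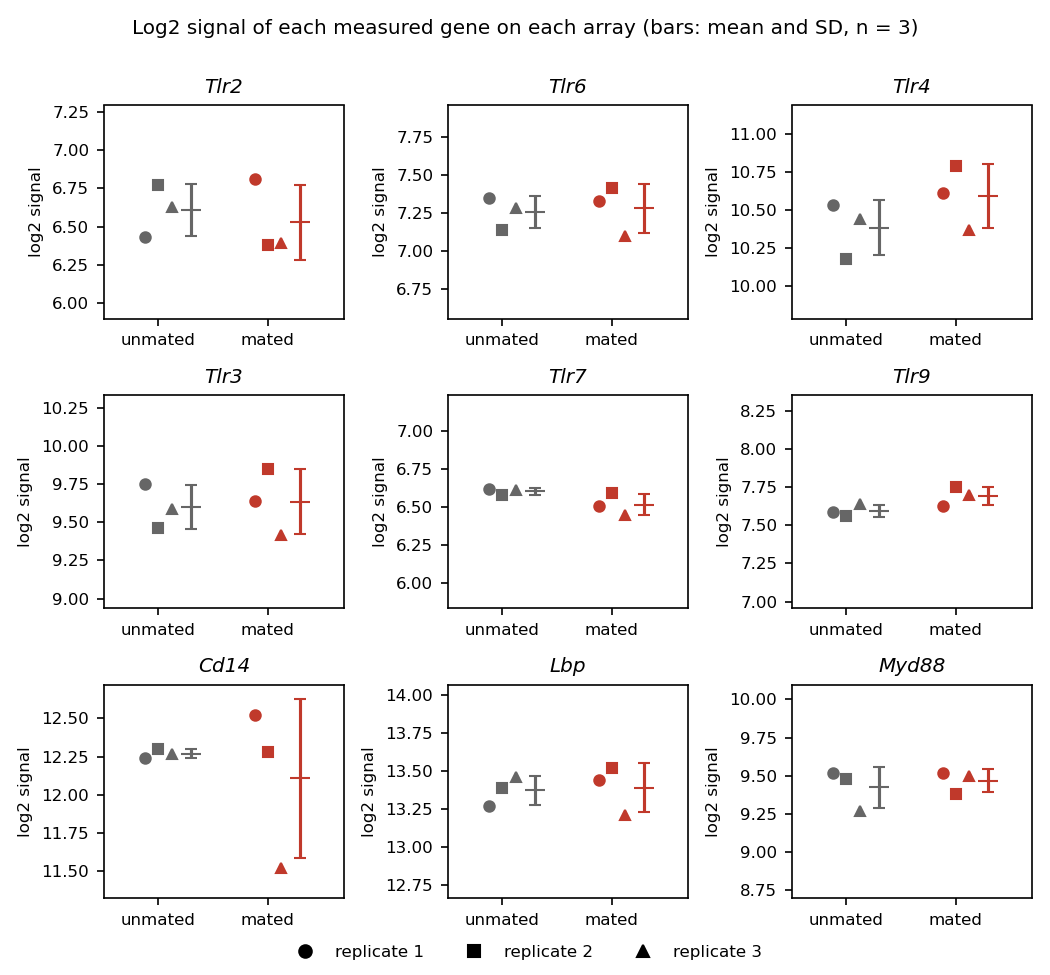
Log2 signal (y axis) of the 9 measured genes on each of 3 unmated (grey) and 3 mated (red) arrays, with the mean and SD of each group at the right of its points; all panels span the same range of log2 units. The groups overlap in each panel, and Cd14 on mated replicate 3, at 11.52, stands apart from the other 5 arrays.

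Among surface receptors, Tlr4, which responds to lipopolysaccharide, had log2 signals of 10.53, 10.18 and 10.44 in unmated rats and 10.61, 10.79 and 10.37 in mated rats. Of the mated rats 2 lay above all unmated rats, and the third lay below 2 of them. The log2 fold change was 0.21 (95% confidence interval -0.09 to 0.50; adjusted p = 0.984 by limma), or 1.15-fold with an interval of 0.939 to 1.42. The smallest unadjusted p of the 9 genes was this one, 0.149. Without mated replicate 3 the difference was 0.32, at an unadjusted p of 0.038 and an adjusted p of 1 by limma. It was 0.105 without unmated replicate 2 and 0.107 without mated replicate 2, at unadjusted p-values of 0.443 and 0.439 by limma.

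Tlr6, which pairs with TLR2, measured 7.35, 7.14 and 7.28 in unmated and 7.33, 7.41 and 7.10 in mated rats. The lowest and the highest array were both mated. Its log2 fold change was 0.02 (-0.21 to 0.25), and it was -0.01 after a second quantile normalization. Tlr2, the receptor for bacterial lipoproteins, measured 6.43, 6.77 and 6.63 in unmated and 6.81, 6.38 and 6.39 in mated rats. Here the brightest array was mated replicate 1, while the other mated arrays were the dimmest of all 6. The log2 fold change of Tlr2 was -0.08 (-0.40 to 0.23), at signals within the guide range. It was -0.225 without mated replicate 1 and -0.0033 without unmated replicate 2.

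Of the endosomal receptors, Tlr3, which binds double-stranded RNA, gave 9.75, 9.46 and 9.59 in unmated and 9.64, 9.85 and 9.42 in mated rats. As for Tlr6, mated replicates 2 and 3 held the highest and the lowest value. The log2 fold change of Tlr3 was 0.04 (-0.25 to 0.32). Tlr7, a sensor of single-stranded RNA, gave 6.62, 6.58 and 6.61 in unmated and 6.51, 6.59 and 6.45 in mated rats, and 2 mated arrays lay below every unmated one. Its log2 fold change was -0.09 (-0.24 to 0.07), within the guide range. Tlr9, which recognises DNA rich in unmethylated CpG, gave 7.59, 7.56 and 7.64 in unmated and 7.63, 7.75 and 7.70 in mated rats. The groups overlapped by 0.01 log2 units, and the log2 fold change was 0.10 (-0.06 to 0.25). Tlr7 and Tlr9 were the steadiest of the members, with within-group SDs of 0.052 and 0.051, near the 10th percentile of all genes (10.4 and 10.2).

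The proteins that deliver lipopolysaccharide were bright in every rat. Cd14 measured 12.24, 12.30 and 12.27 in unmated rats, a span of 0.06 log2 units, and 12.52, 12.28 and 11.52 in mated rats, a span of 1.0. Mated replicate 1 was the highest of the 6 and mated replicate 3 the lowest, 0.72 units below the next array. The within-group SD of 0.37 stood at the percentile 98.5 of all genes. The log2 fold change of -0.16 (-0.68 to 0.35) rested on that 1 array: without mated replicate 3 it was 0.13, and no call was made either way (adjusted p = 0.984 with all arrays and adjusted p = 1 without it, by limma). On mated replicate 3 the mean of the epithelial markers was 0.15 above the unmated mean and that of the macrophage markers 0.02 below it. Their part in the Cd14 value was not tested.

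Lbp, a secreted lipid-binding protein known best from the liver, measured 13.27, 13.39 and 13.46 in unmated and 13.44, 13.52 and 13.21 in mated rats. Its mean signal exceeded that of nearly all genes, at the percentile 99.8. The log2 fold change was 0.02 (-0.21 to 0.24), and mated replicate 3 was again the lowest array. Myd88, the adaptor shared by most of the receptors, measured 9.52, 9.48 and 9.27 in unmated and 9.52, 9.38 and 9.50 in mated rats. Apart from unmated replicate 3, the values lay within 0.14 units of each other, and the log2 fold change was 0.04 (-0.16 to 0.25). As folds, the 95% intervals were 0.865 to 1.18 for Lbp and 0.895 to 1.19 for Myd88.

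The receptors were then compared with each other across rats. Tlr3, Tlr4 and Tlr6 had a similar order of rats: each was highest in mated replicate 2, and unmated replicate 2 and mated replicate 3 were the lowest pair of arrays for each. For Tlr3 and Tlr6, Pearson's r over the 6 arrays was 0.97 (exact permutation p = 0.00278) and Spearman's rho 1 (exact p = 0.00278). After Benjamini-Hochberg adjustment over 36 pairs of members both gave an adjusted p = 0.1 by the same exact test, so no pair passed the threshold. Without the 2 arrays farthest from the median of Tlr3 r was 0.95. For Tlr3 and Tlr4 r was 0.88 (exact permutation p = 0.0208, adjusted p = 0.25) and rho 0.89 (exact p = 0.0333, adjusted p = 0.4), with r = 0.84 without the 2 farthest arrays. For Tlr4 and Tlr6 r was 0.88 (exact permutation p = 0.0181, adjusted p = 0.25) and rho 0.89 (exact p = 0.0333, adjusted p = 0.4), with r = 0.85 on the same terms. With the mean of each group taken out, r was 0.97, 0.97 and 0.98 for these pairs in the order given. On that measure Tlr7, within the guide range, also had r of 0.94 with Tlr3, 0.91 with Tlr6 and 0.90 with Tlr4, while over the arrays as measured these were 0.57, 0.55 and 0.14. A second quantile normalization gave r of 0.81 for Tlr3 and Tlr6, 0.88 for Tlr3 and Tlr4 and 0.67 for Tlr4 and Tlr6. The mean signal of Tlr6 stood only 0.13 log2 units above the limit of the guide.

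The macrophage markers were highest in another rat, unmated replicate 1, at 0.10 above the unmated mean. In mated replicate 2, where the 3 receptors were highest, the mean of 11 macrophage markers was 0.09 below the unmated mean, and in mated replicate 3 it was 0.02 below. The means of 10 neutrophil markers, of 8 sperm markers and of 23 NF-kB targets were highest in mated replicate 2, as the receptors were, at 0.16, 0.13 and 0.10 above their unmated means. Above the guide lay 0 of these neutrophil markers, 2 of the sperm markers and 14 of the NF-kB targets, so much of this signal was within the guide range. As a description over the 6 arrays, Tlr4 had r of 0.77 with the NF-kB targets, 0.55 with the neutrophil markers, 0.45 with the sperm markers and -0.13 with the macrophage markers. It also had r of -0.65 with the endothelial markers and 0.62 with the interferon targets. With the NF-kB targets r was 0.45 for Tlr3 and 0.42 for Tlr6. Tlr9 had r of 0.97 with the NF-kB targets, 0.87 with the neutrophil markers and 0.82 with the sperm markers, so such values were not particular to Tlr4. The part of these lists in the shared order was not tested. Cd14 and Lbp had r = 0.73 (exact permutation p = 0.0694, adjusted p = 0.625) and rho 0.54 (exact p = 0.297, adjusted p = 0.886), and r fell to 0.58 without the arrays farthest from the median of Cd14. The most opposed pair was Tlr2, within the guide range, and Tlr9, with r = -0.63 (exact permutation p = 0.208, adjusted p = 0.646) and rho -0.71 (exact p = 0.136, adjusted p = 0.791), and with r = -0.46 without the 2 farthest arrays.

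**Figure D3:**
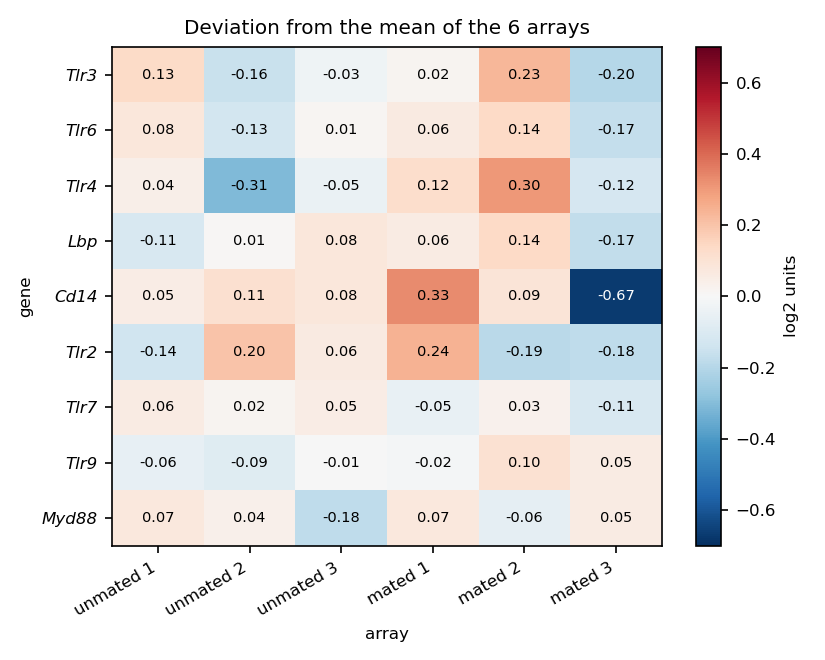
Deviation of each of the 9 genes (rows) on each of the 6 arrays (columns) from its own mean over the arrays, in log2 units by colour and number. Tlr3, Tlr6 and Tlr4 share a column pattern with mated replicate 2 highest, and Cd14 in mated replicate 3 has the deepest value, -0.67.

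The ratios of Tlr4 to Tlr3 and to Tlr6 within an array varied less between rats of a group than the levels of Tlr4 did. The Tlr4 signal exceeded that of Tlr3 by 0.78, 0.72 and 0.85 log2 units in unmated and by 0.97, 0.94 and 0.95 in mated rats. All mated rats lay above all unmated rats, by a mean of 0.17, where the SD was 0.07 in unmated and 0.02 in mated rats. Tlr4 over Tlr6 gave 3.18, 3.04 and 3.16 in unmated and 3.28, 3.38 and 3.27 in mated rats, a mean difference of 0.18, again without overlap. Tlr6 stood only 0.13 log2 units above the limit of the guide, so this difference is to be read with caution. A ratio of this kind can show unequal change of a pair, not which of them changed.

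Of the 15 pairs of receptors 4 did not overlap between groups, against 8.96% of all pairs of genes on these arrays. The other 2 were Tlr4 over Tlr7, with a mean difference of 0.29, and Tlr9 over Tlr7, with 0.18; the signal of Tlr7 lay within the guide range, so no change can be read from these 2 with confidence. The 4 share members, 3 of them hold Tlr4 and 2 hold Tlr7, so they are not independent results. Each had an exact permutation p = 0.1 (two-sided, adjusted p = 0.375 over the 15 pairs), the smallest p that 3 rats against 3 allow, so no pair could pass the threshold. Of the alternatives run on these ratios, a second quantile normalization was the one that could bring the groups to overlap; it did not, and gave mean differences of 0.17 for Tlr4 over Tlr3, 0.23 for Tlr4 over Tlr6, 0.33 for Tlr4 over Tlr7 and 0.20 for Tlr9 over Tlr7. By contrast Tlr3 over Tlr6 differed by 0.01 between groups (exact permutation p = 0.9, adjusted p = 0.964).

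**Figure D4:**
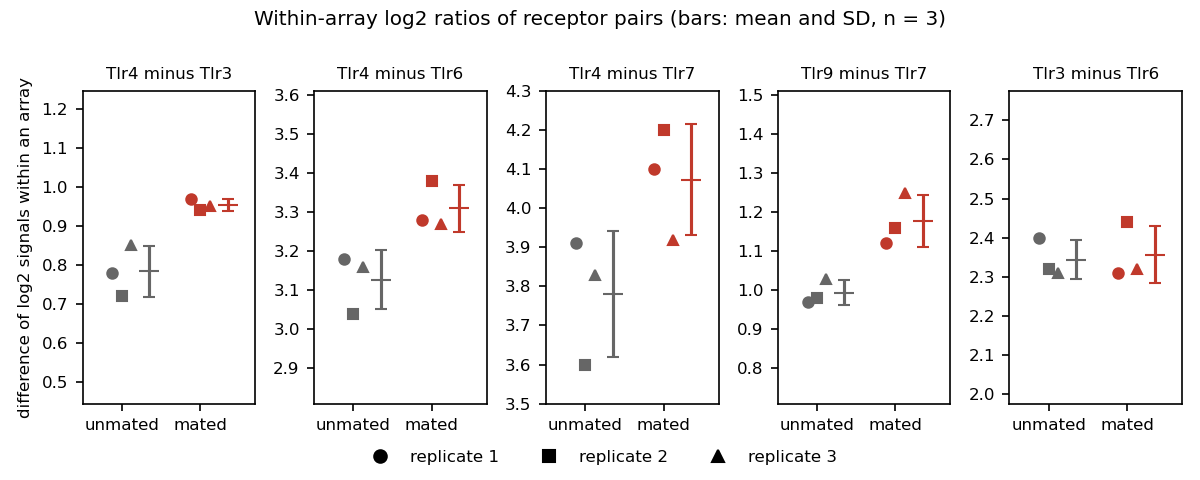
Differences of log2 signals between 2 receptors within each array (y axis) in 3 unmated (grey) and 3 mated (red) rats, with the mean and SD of each group. The first 4 panels show no overlap, with mean differences of 0.17, 0.18, 0.29 and 0.18, and the last, Tlr3 minus Tlr6, shows overlap.

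The rest of the pathway was read from lists of 95 genes, of which 81 were measured and 66 lay above the guide. Of the 81, 0 had an adjusted p under 0.05 by limma, and 4 (4.94%) had an unadjusted p under 0.05, beside 4.57% of all genes. The groups did not overlap for 8 (9.88%), 4 higher and 4 lower in mated rats, beside 8.47% of all genes. The median log2 fold change was 0.02, so as a group the pathway stood close to the background.

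The accessory proteins held the gene with the smallest p. Ly96, which encodes MD-2, the subunit that binds lipopolysaccharide on TLR4, measured 9.67, 9.65 and 9.62 in unmated and 10.03, 9.96 and 9.78 in mated rats. All 3 mated rats lay above all unmated rats, and the log2 fold change was 0.28 (95% confidence interval 0.09 to 0.46; unadjusted p = 0.00947, adjusted p = 0.984 by limma). It lay between 0.22 and 0.35 in the 16 alternatives and did not pass the adjusted threshold in any of them, where the smallest adjusted p by limma was 0.506. Of the 9 accessory genes 4 had a higher and 5 a lower mean in mated rats, with a median of -0.01. Ly86, the partner of the TLR4-like protein RP105, differed by -0.16 (-0.38 to 0.06), and Unc93b1, which carries the endosomal receptors out of the endoplasmic reticulum, by -0.10 (-0.28 to 0.07).

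Of 19 measured adaptors, kinases and transcription factors, 5 had groups that did not overlap, 2 higher and 3 lower in mated rats, or 26.3% of the list beside 8.47% of all genes. Irak1, a kinase recruited by MYD88, measured 9.50, 9.55 and 9.51 in unmated and 9.28, 9.32 and 9.45 in mated rats. Its log2 fold change was -0.17 (-0.34 to -0.004; unadjusted p = 0.0461, adjusted p = 0.984 by limma). The TAK1 partners Tab1 and Tab2 differed in opposite ways, by -0.15 (-0.31 to 0.02) and 0.10 (-0.06 to 0.25). The remaining pair, the kinase gene Ikbkb at -0.05 and the adaptor gene Traf3 at 0.05, was named after the values were seen.

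Negative regulators gave 7 of 13 genes higher and 6 lower, with a median of 0.01 and 0 of 13 genes without overlap, beside 8.47% of all genes. Zc3h12a, an endoribonuclease that degrades cytokine messengers, differed by -0.14 (-0.37 to 0.10). Dusp1, a phosphatase that switches off MAP kinases, differed by 0.28 (-0.25 to 0.80) and ranged from 10.35 to 11.24 among unmated rats alone. Without unmated replicate 1 the difference of Dusp1 was 0.52, and without unmated replicate 2 it was 0.073. Socs1, which restrains cytokine signalling, differed by 0.13 (-0.13 to 0.40). On leaving out 1 array Zc3h12a ran from -0.24 to -0.047 and Socs1 from 0.035 to 0.22. Tlr12, the single measured gene of the 6 other receptors looked for, differed by 0.05 (-0.13 to 0.22).

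Of 23 measured NF-kB target genes 18 had a higher and 5 a lower mean in mated rats, with a median of 0.04, where 53.3% of all genes were higher. The mean of the 23 per array, relative to its unmated mean, ran from -0.04 to 0.04 in unmated and from 0.03 to 0.10 in mated rats. The groups thus overlapped. Of the 23 genes 9 lay within the guide range. Cxcl2, a chemokine for neutrophils, measured 5.33, 5.25 and 5.44 in unmated and 5.6, 5.77 and 5.42 in mated rats, a log2 fold change of 0.26 (0.02 to 0.49; unadjusted p = 0.036, adjusted p = 0.984 by limma) within that range. Il10, an anti-inflammatory cytokine, differed by 0.26 (-0.05 to 0.57), also within it. Irf1, a transcription factor of the interferon response, had 8.65, 8.61 and 8.69 in unmated and 9.03, 8.73 and 8.73 in mated rats. The groups of Irf1 did not overlap, and its log2 fold change was 0.18 (-0.04 to 0.40), or 0.08 without mated replicate 1.

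The interferon targets, reached from several of these receptors, were even, with 8 of 16 genes higher and 8 lower and a median of -0.0017. Mx1, an antiviral GTPase, had 9.55, 9.13 and 9.14 in unmated and 9.53, 9.64 and 9.68 in mated rats. Unmated replicate 1 reached the level of the mated rats, and the log2 fold change was 0.34 (0.07 to 0.62; unadjusted p = 0.0211, adjusted p = 0.984 by limma). The chemokine gene Ccl5 differed by -0.15 (-0.32 to 0.02) and Stat2, a signal carrier of interferon receptors, by -0.17 (-0.42 to 0.08).

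**Figure D5:**
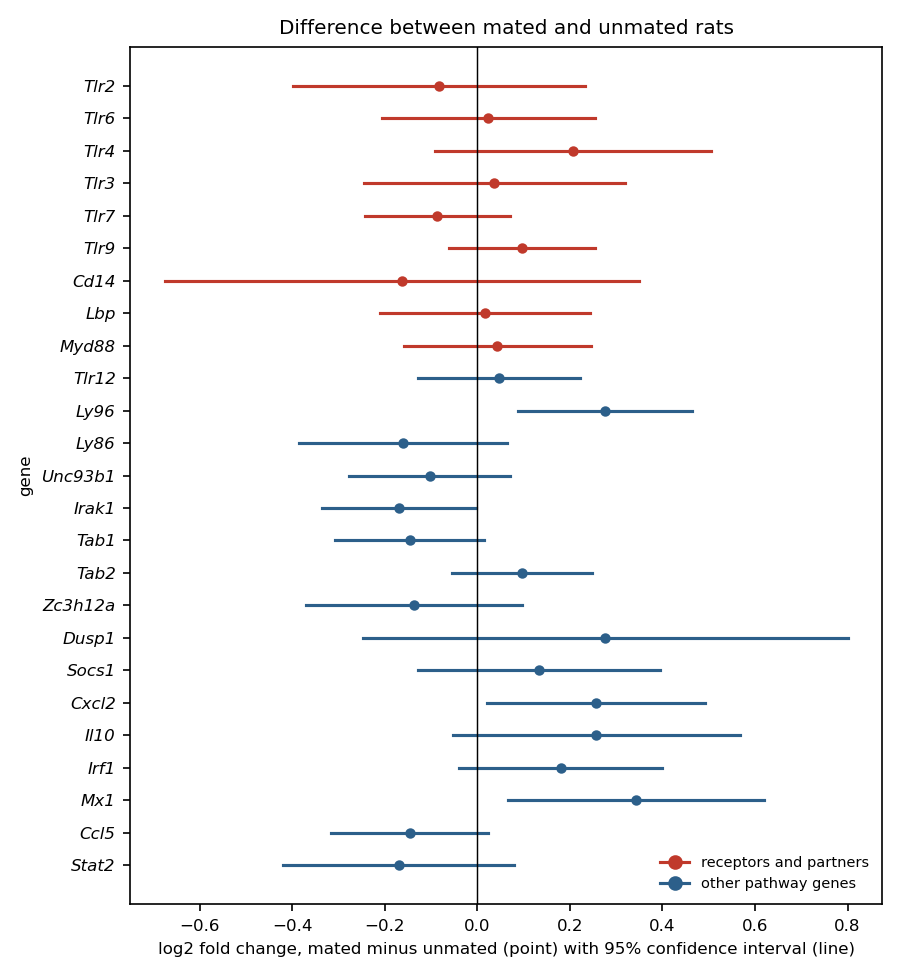
Log2 fold change, mated minus unmated, with its 95% confidence interval (x axis) for the 9 measured receptors and partners (red) and for the other pathway genes named by rule (blue). All 9 red intervals span 0; those of Ly96, Irak1, Cxcl2 and Mx1 do not, before adjustment for the number of genes.

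Of the markers of cell types 0 passed the adjusted threshold between mated and unmated rats by limma. Of 11 macrophage markers 4 had a higher and 7 a lower mean in mated rats, and Lyz2 differed by -0.27 (95% confidence interval -0.60 to 0.06). The mean of the 11, relative to its unmated mean, ran from -0.08 to 0.10 in unmated and from -0.12 to -0.02 in mated rats. Of 10 neutrophil markers 8 had a higher and 2 a lower mean in mated rats, where 53.3% of all genes were higher. All 10 lay within the guide range, among them Elane, neutrophil elastase, which differed by 0.22 (0.07 to 0.38). Their mean, relative to its unmated mean, ran from -0.07 to 0.11 in unmated and from 0.05 to 0.16 in mated rats. For 8 sperm markers it ran from -0.01 to 0.02 and from -0.05 to 0.13, with the protamine gene Prm1 at 0.17 (-0.0001 to 0.34) and the transition protein gene Tnp1 at -0.18. The 7 fibroblast markers all had a lower mean in mated rats, with a median of -0.09, and their mean ran from -0.24 to 0.15 in unmated and from -0.27 to -0.13 in mated rats. Of 6 endothelial markers 3 were higher and 3 lower, with a median of -0.055: Tie1 differed by 0.33 (0.08 to 0.58), while Tek, at -0.29 (-0.54 to -0.04), and Emcn, at -0.22 (-0.43 to -0.01), were named after their values were seen. Single genes named by rule from the other lists were Muc1 at 0.19, Nkg7 at -0.23, Cd8a at -0.15, Dpt at -0.46, Col1a1 at -0.02, Acta2 at -0.03 and Lmod1 at -0.11. The groups of Dpt did not overlap, with an interval of -0.69 to -0.22 (unadjusted p = 0.00202, adjusted p = 0.984 by limma). Its mean signal of 7.22 lay close to the guide limit of 7.13. Of 9 lymphocyte markers 4 had a higher and 5 a lower mean in mated rats. Like Elane, the genes Tnp1, Tek, Emcn, Nkg7 and Lmod1 lay within the guide range, so no change can be read from them with confidence. The part of these markers in the values of the receptors was not tested.

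The genes whose signals followed each member most closely were sought among 10307 or 10308 genes above the guide, by Pearson's r over the 6 arrays. They were H6pd and Samd9l for Tlr3 (r = 0.98 and 0.97), LOC680428 and Gca for Tlr4 (0.99 and 0.98), and Slc10a6 and Phf21a for Tlr6 (0.98 for each). For Tlr2 they were Dnah10 and Rsl24d1 (0.99 for each), for Tlr7 Atad2b and Hnrnpd (0.99 for each) and for Tlr9 Aldh1l1 and Soat2 (0.99 for each). For Cd14 they were Cwc27 and Dnai1 (0.99 for each), for Lbp Klhdc1 and Rab40c (0.99 and 0.98), and for Myd88 Arhgap35 and Zkscan3 (1.00 and 0.99). Between 40 and 278 genes per member had an r above 0.9, so with 6 arrays a close match is common and these values are a description.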

How the data were processed

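The endosalpinx of 6 rats was measured, 3 mated and 3 unmated, with 1 Affymetrix array each from 0.3 µg of total RNA, per the labels. The authors deposited log2 signals made with RMA in Affymetrix Expression Console, per the submitters' processing notes; that the scale is log2 was taken from the range of values and the method. Versions, scan dates, batches and the genome build are not given in the sources used here. Medians of the arrays lay between 7.89 and 7.94. RMA forces similar distributions on all arrays and compresses dim signals. Arrays have no depth, and their number limits precision.

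Of 29214 probe sets, 15310 had exactly 1 gene symbol in the array annotation, 323 had several and 13581 had none listed. The brightest probe set per gene was kept (14506 genes). Symbols of all 9 members matched RefSeq (GRCr8). Groups were compared with limma 3.58.1 in R 4.3.3 (lmFit, eBayes, no block), with Benjamini-Hochberg adjustment over all genes at 0.05, two-sided. Intervals are 95% and moderated. Ratios and correlations used exact permutation tests over arrays. The limma fit was tested on simulated data with planted changes larger than those seen in the members. That test does not bear on small changes.

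The members and lists were chosen with earlier results of these data known. From each pathway list the 3 genes of smallest unadjusted p were named, and from each cell type list the brightest gene and that of smallest p. The correlations between members, the promoter motifs and the other limits for the guide were chosen after seeing the data. Alternatives comprised the replicate number as a block, robust fitting, weighted arrays, a trend of variance with intensity, another quantile normalization, median centring, removal of the dimmest 25% and 50% of genes, the mean of all probe sets, all probe sets, and leaving out each array.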

Additional observations from a re-analysis of the deposited data

How the results depend on the processing

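Under each of 16 alternatives 0 genes passed the adjusted threshold by limma, members and pathway genes included. With the replicate number as a block the count stayed at 0 of 14506 genes, with 672 at an unadjusted p under 0.05 in place of 663, and 0 of 9 members. Correlations between arrays of the same number were 0.02, -0.04 and 0.08, and not every array correlated best with its own number. These values do not show a pairing by number, and with 3 rats per group they cannot exclude one. Array weights gave 1207 genes at an unadjusted p under 0.05 and leaving out mated replicate 1 gave 1403, with smallest adjusted p-values of 0.593 and 0.104. Leaving out 1 array, the count of members higher in mated rats ran from 3 to 7 and their median from -0.04 to 0.11. Of 38 named genes 32 kept their direction in each alternative that gave them a value, 14 to 16 per gene. On leaving out 1 array Tlr3 ran from -0.07 to 0.15, Tlr6 from -0.042 to 0.11, Myd88 from -0.033 to 0.092, Cd14 from -0.37 to 0.13, Lbp from -0.048 to 0.11 and Col1a1 from -0.12 to 0.15; Tlr2 ran from -0.225 to -0.0033, Tlr4 from 0.105 to 0.32, Tlr7 from -0.12 to -0.053 and Tlr9 from 0.068 to 0.13. A second quantile normalization turned Tlr6 to -0.012 and Col1a1 to 0.0017, and array weights turned Col1a1 to 0.072; the cause was not tested. The limit at the highest gene of the guide family, 9.7, left 3 members above it. Tlr2 and Tlr7 were left out with the dimmest 25% of the genes. With 3 rats per group, differences such as that of Tlr4 lie inside the spread between animals.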
